A study of Mus musculus with 7 samples.

Results

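The miR-183, miR-96 and miR-182 cluster was read through 11 of the 1874 small-RNA probes of a custom mouse array. The members are every probe whose target carries, at bases 2 to 8 (the seed), the seed of miR-183 (3 probes), miR-96 (5 probes) or miR-182 (3 probes). In both groups of CD4 T cells activated in mice, the full-length miR-96-5p and miR-182-5p probes were well above background on every array. The miR-183-5p signal was so on both wild-type host arrays but on only 1 of 3 self-antigen host arrays. No naive array gave a spot well above background for any of these miRNAs. After scaling of the arrays, mean levels in wild-type hosts were at least 15.2-fold (miR-96-5p), 10.0-fold (miR-182-5p) and 4.13-fold (miR-183-5p) above naive cells. These bounds, from 2 arrays a group, depend on the scaling and make no allowance for scatter between arrays. On the same scale, levels in the self-antigen hosts lay below those in the wild-type hosts, as they did for 17.8% of all features tested. No member passed the test of that difference.

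RNA came from CD4 T cells whose T cell receptor is DO11.10, specific for a peptide of ovalbumin, on the Balb/c background, from spleen and lymph nodes of mice aged 6 to 8 weeks. Each of the 7 arrays holds 1 RNA sample labelled in a single colour, and the design text names 250 ng of RNA. Naive cells (2 arrays) came from DO11.10 mice with intact Rag2 (Rag2+/+) and were sorted as CD25- and CD44 low. Activated cells were sorted as CD44 high donor cells 5 days after transfer into WT Balb/c hosts (2 arrays) or into sOVA hosts (3 arrays).

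The activated cells came from Rag2-/- donors and the naive cells from Rag2+/+ mice, so activation, transfer and donor genotype cannot be told apart in either comparison with naive cells. Both kinds of host were immunized 24 hours after transfer with dendritic cells grown from bone marrow, which had been activated by LPS and carried Ova peptide. The sample titles call the first host OVA immunized and the second sOVA immunized, so a difference in immunization cannot be told apart from the host. The labels give no cell type or promoter for the sOVA antigen. In the series title the activation is in vitro, whereas the design text and the protocols describe activation in mice. Cells were sorted from pooled mice. Whether replicates are separate pools is not stated, so p-values here reflect only the scatter of these arrays, part or all of which may be technical.

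MicroRNAs are short RNAs that guide the silencing complex to messenger RNAs, mostly by pairing of the seed. The miRNAs miR-183, miR-96 and miR-182 are cut from a shared primary transcript and are best known from sensory cells of the eye and ear, where they are abundant. In helper T cells, miR-182 is known to be induced by interleukin-2 through STAT5 and to act on Foxo1, a transcription factor of resting lymphocytes, during clonal expansion.

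The 5′ arms of the hairpins give the mature miRNAs that the brightest probes target. Their mouse sequences, from RefSeq, are shown because the members were chosen by them and because they show how alike the 3 seeds are. Capitals mark the seed.

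miR-183-5p: uAUGGCACugguagaauucacu

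miR-96-5p: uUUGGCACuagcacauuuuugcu

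miR-182-5p: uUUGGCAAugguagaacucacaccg

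Counted from 1 at the 5′ end, the seed of miR-183 differs from that of miR-96 by A2U alone, and the seed of miR-96 differs from that of miR-182 by C8A alone. Over their whole length, miR-183 and miR-182 are the closest pair. They differed at 4 of their 22 shared positions, by A2U, C8A, U17C and U22A. By contrast, miR-183 and miR-96 differed at 9 of 22 positions, and miR-96 and miR-182 at 11 of 23. In the RefSeq table, 4 of 1738 mouse mature miRNAs carry one of these seeds. The fourth is miR-1271-5p, with the miR-96 seed, encoded on chromosome 13 (GRCm38.p6, 54578152 to 54578173, plus strand) by the gene listed as Gm24195.

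In the GRCm38.p6 assembly all 3 hairpins lie on the minus strand of chromosome 6. The Mir183 hairpin spans 30169668 to 30169737, the Mir96 hairpin 30169446 to 30169551 and the Mir182 hairpin 30165918 to 30165992. There are 116 bases between Mir183 and Mir96 and 3453 bases between Mir96 and Mir182. RefSeq places them within the long non-coding RNA gene Mirc35hg. Its neighbours are Nrf1, which encodes a transcription factor, and BB283400, with Ube2h as the next protein-coding gene beyond that. Mature miR-183-5p covers 30169711 to 30169732, miR-96-5p 30169506 to 30169528 and miR-182-5p 30165962 to 30165986.

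Since the files name no miRNAs, probes were named by their targets. The targets of UC1005172, UC1004989 and UC1005169 equal the full mouse miR-183-5p, miR-96-5p and miR-182-5p, written as DNA. A further 3 probes are length or end forms of these. UC1005173 carries miR-183-5p with 1 more base at its end. UC1005168 carries miR-182-5p without its last 3 bases. UC1005170 is equal to miR-182-5p over its first 23 bases and then ends differently. These 3 forms are shown because they differ from the probes above only at the 3′ end of the target.

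UC1005173: tATGGCACtggtagaattcactg

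UC1005168: tTTGGCAAtggtagaactcaca

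UC1005170: tTTGGCAAtggtagaactcacact

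The other 5 members share a seed but not the rest of the sequence, and none equals a mouse mature miRNA in the table. They are UC1005314 with the miR-183 seed and UC1005353, UC1006164, UC1006165 and UC1006390 with the miR-96 seed. UC1005353 is of use as a comparison because it holds the miR-96 seed in a body close to miR-183. It differs from miR-183-5p at 3 of 21 positions, by U1C, A2U and U12G. UC1005314 differs from miR-183-5p at 5 of 22 positions, by U1A, G11C, U12A, A13U and U22G, none of them in the seed. UC1006390 resembles miR-1271-5p and differs from it by G11A and U13C.

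UC1005353: cTTGGCACtgggagaattcac

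UC1005314: aATGGCACtgcatgaattcacgg

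UC1006390: cTTGGCACctagcaagcactca

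The scanner software marks a spot at or below background and gives it a stand-in intensity, called the surrogate value here. All 5 of these members carried that mark in 240 of 240 spots over 7 arrays. The surrogate value was the same for all of their spots on 5 of the arrays, and varied slightly from spot to spot on WT host replicate 2 (9.94 to 11.5) and sOVA host replicate 3 (14.8 to 15.7). UC1005353 and UC1005314 thus held the surrogate value on the same activated arrays where miR-183-5p, miR-96-5p and miR-182-5p lay above it. Among probes without one of the 3 seeds, the nearest to miR-183-5p was UC1005352, at 5 edits, and it was not detected on any of the 7 arrays. The nearest to miR-96-5p was UC1005132, which targets miR-148a-3p, at 8 edits and detected on 7 of 7 arrays.

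Before scaling, the files give spot intensity in linear units. The miR-96-5p probe UC1004989 gave 20.0 and 14.9 in naive cells, 924 and 217 in WT hosts, and 452, 367 and 93.0 in sOVA hosts. The miR-182-5p probe UC1005169 gave 18.9 and 10.2 in naive cells, 614 and 143 in WT hosts, and 272, 353 and 96.0 in sOVA hosts. The miR-183-5p probe UC1005172 gave 18.9 and 10.2, then 219 and 67.6, then 106, 121 and 48.3. Every activated array was brighter than both naive arrays for each of these probes. The dimmest activated arrays for all 3 probes were replicate 2 of the WT hosts and replicate 3 of the sOVA hosts.

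**Figure D1:**
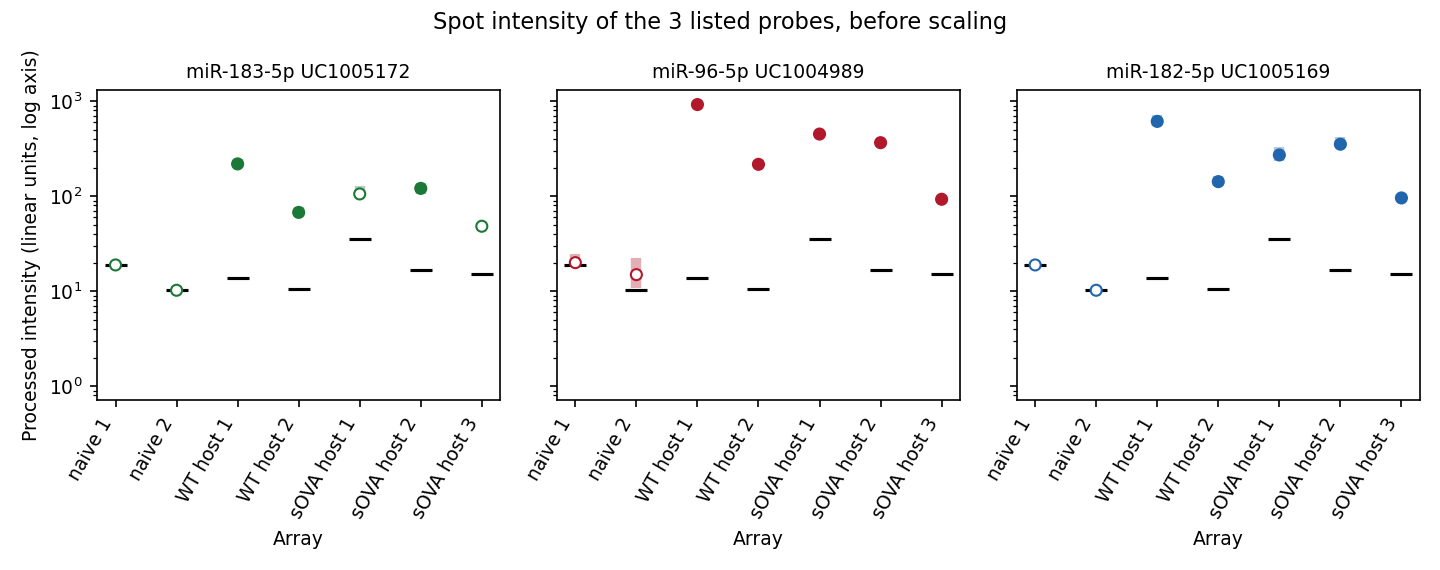
Spot intensity of the miR-183-5p, miR-96-5p and miR-182-5p probes on each of the 7 arrays, in linear units on a log axis. Points are the mean over a probe's spots (taken on the log scale), filled where the probe was well above background, bars run from the lowest to the highest spot, and black marks are the surrogate value of that array. Naive points sit at or close to the surrogate value (miR-96-5p at 20.0 and 14.9), and the activated arrays range from 48.3 to 924.

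These 2 dim arrays were also the dimmest over the probes detected everywhere. Among 253 probes detected on each of the 7 arrays, the 75th percentile of intensity was 3591 and 2729 there and 9281 to 15743 on the others. Intensities of miR-96-5p differed 4.26-fold between the WT host arrays and 4.86-fold over the sOVA host arrays. After each array was divided by its 75th percentile, these spreads were 1.65-fold and 1.39-fold. For miR-182-5p they fell from 4.31-fold and 3.68-fold to 1.67-fold and 1.27-fold. Levels are therefore given below as log2 units relative to that percentile, so a level of -4 lies 4 units under it.

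On this scale miR-96-5p stood at -9.21 and -10.04 in naive cells, -3.33 and -4.05 in WT hosts, and -4.45, -4.92 and -4.88 in sOVA hosts. The level of miR-182-5p was -9.29 and -10.59, then -3.92 and -4.65, then -5.18, -4.98 and -4.83. The level of miR-183-5p was -9.29 and -10.59, then -5.40 and -5.73, then -6.54, -6.52 and -5.82. For each of the 3 probes the naive arrays lay lowest, the WT host arrays highest and the sOVA host arrays between them, without overlap of the groups. This order between hosts depends on the scaling: in intensity, WT host replicate 2 lay below sOVA host replicates 1 and 2 for all 3 probes. For miR-183-5p the order also rests on sOVA host replicates 1 and 3, where it was not well above background. Among the 342 features tested, the lowest WT host array exceeded the highest naive array in 44.4%, and the lowest sOVA host array did so in 32.2%.

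**Figure D2:**
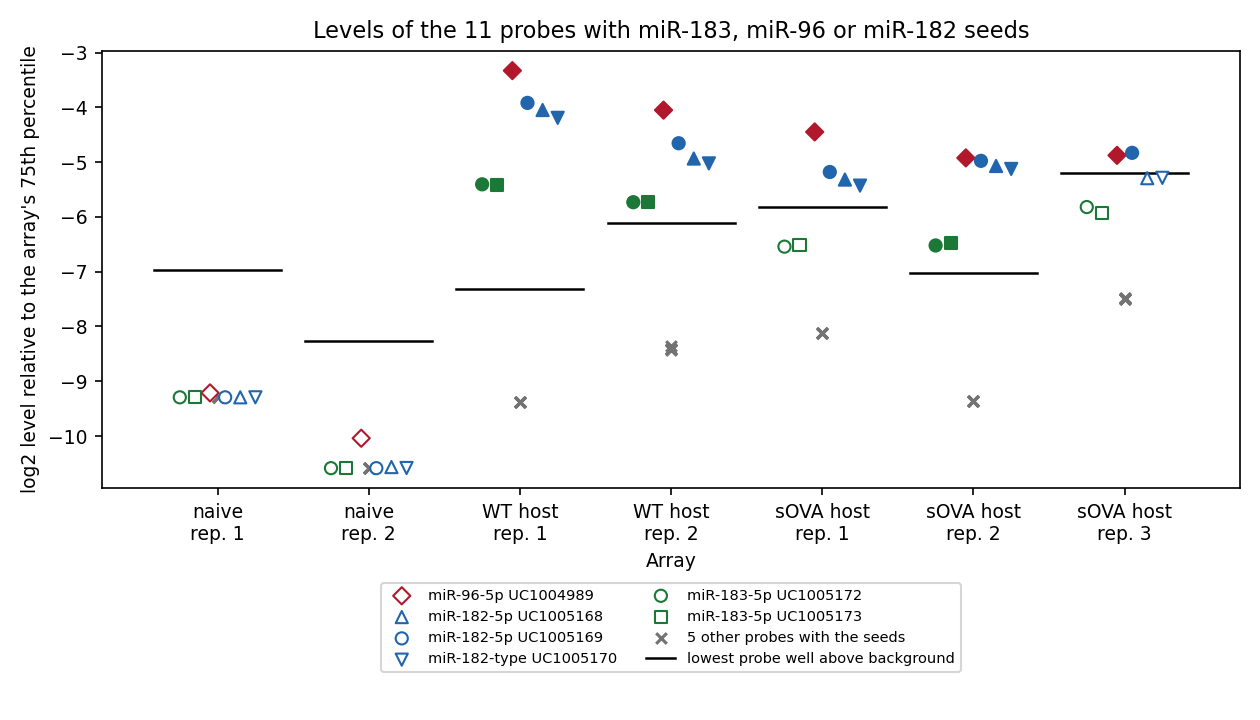
Levels of the 11 members on each array, in log2 units relative to the array's 75th percentile. Filled symbols are probes well above background, open symbols and crosses are not, and the black line is the lowest probe well above background on that array. The 6 probes of miR-183-5p, miR-96-5p and miR-182-5p lie between -6.54 and -3.33 on activated arrays, while the 5 other members lie at the surrogate value throughout.

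The naive values are limits and not measured levels. Over the 6 bright probes, 70 of 83 naive spots held the surrogate value and 0 were well above background. The lowest probe well above background lay at -6.96 and -8.27 on the naive arrays. Before scaling these were intensities of 95.1 and 51.1, and miR-183-5p on WT host replicate 2 (67.6) lay below the first of them. In activated cells all 6 were well above background on both WT host arrays. In sOVA hosts, miR-96-5p and the miR-182-5p probe UC1005169 were well above background on 3 of 3 arrays, and the other miR-182 probes on 2 of 3. Both miR-183-5p probes were well above background on 1 of 3 sOVA host arrays, replicate 2.

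On activated arrays the miR-183-5p probes lay within 0.11 log2 units of each other, and the miR-182 probes within 0.46, with UC1005169 the highest of them on each. UC1005168, 3 bases shorter than UC1005169, stood at -4.05 and -4.93 in WT hosts and -5.32, -5.07 and -5.29 in sOVA hosts. UC1005170 stood at -4.19 and -5.02, then -5.43, -5.12 and -5.29. UC1005173, 1 base longer than UC1005172, stood at -5.41 and -5.73, then -6.52, -6.48 and -5.93. Spots of 1 probe on 1 activated array had an SD of 0.042 to 0.18 log2 units (median 0.113), against an SD between arrays of 0.51 for miR-96-5p, 0.52 for miR-182-5p and 0.23 for miR-183-5p in WT hosts and of 0.26, 0.18 and 0.41 in sOVA hosts. These probes share target sequence and are not replicates.

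The first question of the design is how activated cells differ from naive cells. Signal passed the filter on dim probes for 6 of the 11 members, and it did so through the activated groups alone, so a difference from naive cells was built into their entry. Nested targets were merged, so the 6 members formed 3 features. In bulk RNA, fewer cells that carry a miRNA and less of it in each cell cannot be told apart.

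In WT host cells against naive cells, miR-96-5p was at -3.69 ± 0.51 against -9.63 ± 0.59 (SD, n = 2 each). The estimated difference was 5.94 ± 0.42 log2 units (SE), with limma's adjusted p of 0.00107. Set against the lowest signal that a naive array could show as well above background, the scaled group mean was at least 15.2-fold higher. For miR-182-5p, the member known to respond to interleukin-2, the level was -4.29 ± 0.52 in WT host cells. Its estimated difference was 5.65 ± 0.50 (SE), with limma's adjusted p of 0.0017, and the bound was at least 10.0-fold. For miR-183-5p, the first hairpin of the transcript, the level was -5.57 ± 0.23 in WT host cells. Its estimated difference was 4.37 ± 0.51 (SE), with limma's adjusted p of 0.00299, and the bound was at least 4.13-fold.

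All 3 features were higher in WT host cells at an adjusted p under 0.05, as were 12.9% of the 342 features tested (44). Leaving out single arrays moved the count called in either direction from 64 to between 12 (without naive replicate 1) and 160 (without sOVA host replicate 3), and the 3 features of the cluster stayed called each time. Their entry rested on the activated arrays and their naive values lay at or near the surrogate value. These calls are therefore no separate support for the difference. Fitted one probe at a time, all 6 bright probes passed, with limma's adjusted p from 0.000806 to 0.00253. The call for miR-183-5p rested on the naive surrogate values. With values below background raised to the lowest detected signal of the array, its estimate was 2.05 with limma's adjusted p of 0.091, whereas miR-96-5p kept 3.93 (0.00831) and miR-182-5p kept 3.33 (0.014).

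In sOVA host cells against the same naive arrays, miR-96-5p was at -4.75 ± 0.26 (SD, n = 3), an estimated difference of 4.88 ± 0.39 (SE) with limma's adjusted p of 0.00134 and a bound of at least 7.29-fold. The level of miR-182-5p was -4.99 ± 0.18. Its estimated difference was 4.95 ± 0.45 (SE), with limma's adjusted p of 0.00233 and a bound of at least 6.15-fold. The level of miR-183-5p was -6.29 ± 0.41, with 1 of 3 arrays well above background. Its estimated difference was 3.65 ± 0.46 (SE), with limma's adjusted p of 0.0059. No bound on the fold is given, since 2 of the 3 sOVA host arrays were not well above background either.

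All 3 features were higher in sOVA host cells, as were 15.5% of the 342 features (53). With single arrays left out, the count called in either direction moved from 72 to between 11 (without naive replicate 1) and 131 (without sOVA host replicate 3), with the 3 features called each time. The limit given above for the calls in WT hosts holds here too. The 6 bright probes fitted singly had limma's adjusted p from 0.00114 to 0.00437. With values below background raised as above, miR-183-5p gave 1.77 with limma's adjusted p of 0.0767, while miR-96-5p gave 2.87 (0.021) and miR-182-5p 2.62 (0.0237). Without scaling of the arrays, none of the 3 passed in this comparison: the estimates were 3.85 for miR-96-5p, 3.91 for miR-182-5p and 2.61 for miR-183-5p, with limma's adjusted p of 0.0687, 0.0676 and 0.125. Both comparisons share the naive arrays and so are not independent of each other.

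The bounds can be set beside changes of features that were well above background on every array of both groups. Of 258 such features in the comparison of WT host and naive cells, 1 had a larger change than the miR-96-5p bound of 3.93 log2 units. This was UC1004819, whose target has the seed of miR-21a-5p, at 4.01. The miR-182-5p bound of 3.33 was exceeded by 3 of them and the miR-183-5p bound of 2.05 by 15. In sOVA host cells, 7 and 9 of 214 such features exceeded the bounds of miR-96-5p (2.87) and miR-182-5p (2.62). The median change over all 342 features was 0.27 in WT hosts and 0.11 in sOVA hosts.

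**Figure D3:**
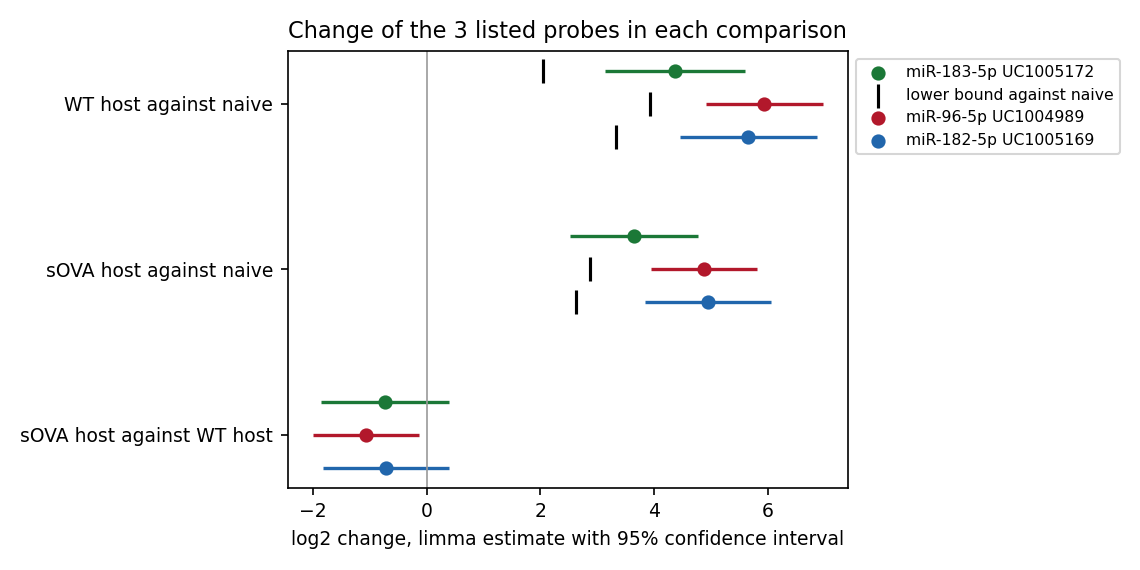
Difference in log2 level for the miR-183-5p, miR-96-5p and miR-182-5p probes in each comparison, with limma's 95% confidence interval as a line. Black marks are the lower bounds against naive cells, which use the lowest signal well above background on each naive array and are left out for miR-183-5p in sOVA hosts. Both comparisons with naive cells lie to the right of 0, from 3.65 to 5.94, and the comparison of hosts lies between -0.71 and -1.06, with an interval that excludes 0 before adjustment for miR-96-5p alone.

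The second question is how cells activated in sOVA hosts, where the antigen is a self-antigen, differ from cells activated in WT hosts. The miR-96-5p level was lower in sOVA hosts by an estimate of -1.06 log2 units (95% interval -1.99 to -0.13), with limma's unadjusted p of 0.0321 and adjusted p of 0.366. For miR-182-5p the estimate was -0.71 (-1.81 to 0.39) and for miR-183-5p -0.73 (-1.85 to 0.40), each with limma's adjusted p of 0.659. The miR-183-5p feature entered this comparison through the WT host arrays, and its estimate uses values not above background on 2 of 3 sOVA host arrays. With such values raised to the lowest detected signal, its estimate was -0.28, with limma's adjusted p of 0.901. After scaling, in all 6 bright probes the lowest WT host array exceeded the highest sOVA host array, and 17.8% of the 342 features did the same. None of the 3 features passed the test. By limma 0% of the 342 features passed in either direction, and 41 had an unadjusted p under 0.05. Without sOVA host replicate 3, 70 features passed, none of them a member. The median difference over all features was -0.15. The intervals include no change for miR-182-5p and miR-183-5p and also include a fall of more than 1 log2 unit, so a difference between hosts was not resolved with these arrays.

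All 7 arrays were on 1 slide with 1 scan time, in 2 rows, and each row held every group. Within row 1, which held naive, WT host and sOVA host replicate 1 and sOVA host replicate 2, the WT host difference from naive was 5.88 for miR-96-5p, 5.38 for miR-182-5p and 3.89 for miR-183-5p. Within row 2 these were 5.99, 5.93 and 4.86. The sOVA host difference from naive was 4.53, 4.22 and 2.76 in row 1 and 5.17, 5.76 and 4.77 in row 2. The difference between hosts was -1.36, -1.16 and -1.13 in row 1. In row 2, where both activated arrays were the dim ones, it was -0.83, -0.18 and -0.09. In row 2 the host difference was close to 0 for miR-182-5p and miR-183-5p, and sOVA host replicate 3 was not well above background for miR-183-5p. The differences from naive cells in each row rest on naive values at or near the surrogate value, and their sizes are not measured folds. Each row has 1 or 2 arrays a group, so these values carry no test.

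The opposite arms of the hairpins are usually degraded as the mature strand is loaded. UC1005174, whose target equals miR-183-3p, gave -9.29 and -10.59 in naive cells, -7.65 and -8.21 in WT hosts and -8.12, -8.71 and -7.46 in sOVA hosts. It was not well above background on any array. All of its spots held the surrogate value on both naive arrays and on sOVA host replicate 1, as did 5 of 6 on sOVA host replicate 3. UC1005171, whose target lies in the 3′ arm of the Mir182 hairpin, held the surrogate value on every array. No probe targets the 3′ arm of Mir96. The 5′ arms were thus the ones measured on these arrays.

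A list of 17 miRNAs known to rise on lymphocyte activation covered 37 tested features by seed. Of these, 12 were higher and 0 lower in WT hosts (median change 0.70), and 17 were higher and 0 lower in sOVA hosts (median 1.11). Over all 342 features, 12.9% and 15.5% were higher and 5.85% and 5.56% lower. Among named members, fitted probe by probe, miR-21 rose by 3.37 and 2.84 in the respective hosts, with limma's adjusted p of 0.00138 and 0.00187. The inflammation-linked miR-155 rose by 4.05 in sOVA hosts (limma's adjusted p 0.021), and its estimate in WT hosts was 2.63 (0.0843). Called higher in both hosts too were miR-222 (2.11 and 1.93), miR-221 (1.70 and 1.58), miR-132 (2.48 and 1.71) and miR-18a (1.99 and 1.26). Their adjusted p by limma ran from 0.0054 to 0.0324. For miR-146a the estimate was 4.08 in sOVA hosts (limma's adjusted p 0.0158) and 2.46 in WT hosts (0.0843). Some other listed miRNAs did not rise. In WT and sOVA hosts the estimates were -0.27 and -0.74 for miR-19b, -0.20 and -0.72 for miR-20a and -0.37 and -0.40 for miR-92a, none called. The median of the list stood under the bounds of miR-96-5p and miR-182-5p in both hosts. A list of 11 miRNAs known from resting T cells had a sequence for 9 of its names and covered 21 features, of which 0 were higher and 4 lower in each host, with medians of -1.47 and -1.49.

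Markers of T cells were present on all arrays. Of 11 probes on the T cell list, which holds miR-142 and miR-181a, 8 to 11 were well above background on each array. Their summed level (1 equals the 75th percentile) was 11.5 to 13.4 in naive cells, 4.54 to 6.82 in WT hosts and 3.24 to 8.69 in sOVA hosts. Of the 8 features tested, 2 were lower in WT hosts and 1 in sOVA hosts, with 0 higher. Because miR-183 cluster members are also known from epithelial cells, the epithelial list is given beside them. Of its 18 probes, 9 to 11 were well above background on naive arrays 0 to 4 on WT host arrays and 0 to 6 on sOVA host arrays. Their summed level was 0.146 to 0.158 in naive cells, 0.0855 to 0.0880 in WT hosts and 0.119 to 0.174 in sOVA hosts. Of the 8 epithelial features tested, 0 were higher and 4 lower in WT hosts, and 0 were higher and 2 lower in sOVA hosts. The epithelial miR-200a was well above background at -6.04 and -6.32 in naive cells and on none of the activated arrays. It had the largest fall in WT hosts, and other list members differed from it. Fitted probe by probe, miR-200c had estimates of -0.12 in WT hosts and 0.19 in sOVA hosts, and miR-141 of -0.94 and -0.91, none called. Each of these 2 was well above background on 5 of 7 arrays. One epithelial miRNA, miR-205, did not enter the test and stood at -4.87, -4.08 and -6.49 in sOVA hosts and at or near the surrogate value on the other arrays.

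The myeloid miRNA miR-223 stood at -3.04 and -2.80 in naive cells, -5.59 and -6.34 in WT hosts and -6.60, -5.22 and -4.99 in sOVA hosts, and was well above background on 5 of 7 arrays. It was called lower in both hosts, with limma's adjusted p of 0.015 and 0.0212. The red cell list, with miR-451 and miR-144, had a summed level of 0.457 to 0.859 in naive cells, 0.164 to 0.479 in WT hosts and 0.0964 to 3.19 in sOVA hosts, where replicate 3 was the highest. The part of these cells in the cluster's values was not tested. Endothelial, neural and muscle lists, each with a sequence for 1 of its names, had 0 probes well above background on every activated array. On naive arrays the neural and muscle lists also had 0, and the endothelial list, read through miR-126-3p, had 0 to 3 of 3 probes.

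The features most like the cluster in their pattern were found by the root mean square difference, over 7 arrays, between each feature's profile and the mean profile of the 3 listed probes, each centred on its own mean. The listed probes themselves lay at 0.213 (miR-182-5p), 0.306 (miR-96-5p) and 0.435 (miR-183-5p) log2 units from that profile. Since the profile is their own mean, these small distances are partly built in and do not measure how alike the 3 are. The median of the 339 other features was 2.23. The nearest were UC1005422 at 0.50, UC1005421 at 0.55, UC1004819 at 0.62, and UC1005419 and UC1004820 at 0.85. The profiles include values at background: UC1005421 held the surrogate value on both naive arrays and UC1004820 on naive replicate 1, as did miR-182-5p and miR-183-5p. UC1005419 targets miR-301a-3p, and UC1005422 and UC1005421 carry the same seed, shared with miR-130a-3p.

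UC1005422: cAGTGCAAtggtattgtcaaagc

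UC1005421: cAGTGCAAtgatattgtcaaagc

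UC1005419: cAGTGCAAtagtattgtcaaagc

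These are shown because 3 of the 5 nearest features share a seed and differ in few bases. UC1005422 stood at -8.19 and -8.39 in naive cells, -3.94 and -3.84 in WT hosts, and -4.44, -4.85 and -4.45 in sOVA hosts. UC1005419 stood at -5.31 and -5.31, then -1.72 and -1.61, then -2.19, -2.97 and -2.25, and was well above background on all 7 arrays. Like the cluster, both were lowest in naive cells and higher in WT than in sOVA hosts on every array. UC1004819 differs from these in that it carries the seed of miR-21a-5p, and it rose by 4.01 in WT hosts and 3.50 in sOVA hosts.

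**Figure D4:**
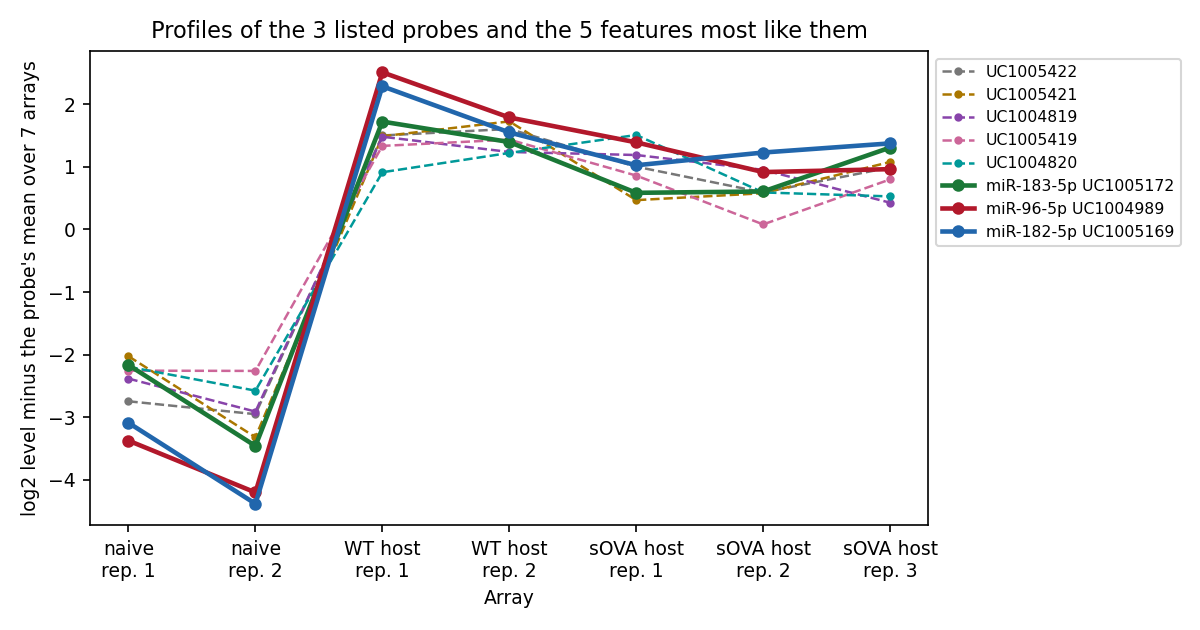
Level of the miR-183-5p, miR-96-5p and miR-182-5p probes (solid lines) and of the 5 features with the most similar pattern (dashed lines) on each array, in log2 units after subtracting each probe's mean over 7 arrays. All 8 lines are low on the naive arrays and high on the 5 activated arrays, and the naive points of the solid lines are at or near the surrogate value.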

How the data were processed

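Spot intensity of 7 single-colour arrays was used as deposited: the scanner files hold linear intensities, background-subtracted and detrended, per the file headers, with flags for spots well above background (other values, as deposited). The headers name Feature Extraction 9.5.1.1 and the submitters' processing notes name 10.6. Control and outlier spots were left out, the log2 values of a probe's spots were averaged. Scaling subtracted, per array, the 75th percentile of the 253 probes that were detected (50% of spots well above background) on 7 of 7 arrays. The target of a probe is its reverse complement without the 10 T at its end and the added G. Probes with nested targets were merged, giving 1753 features, and those with detection throughout 1 or more groups (342) were fitted with limma (3.58.1, R 4.3.3) and adjusted by Benjamini-Hochberg, with a threshold of 0.05. The fit was tested on simulated data that had no background floor, so that test does not cover naive values at the surrogate value. A bound sets the bright group's mean against the naive mean of the lowest signal well above background, without allowance for scatter between arrays. RefSeq sequences (GRCm38.p6) gave the names, and 5 members matched a mouse mature miRNA. The genome build of the array design is not given in the sources used here. Probes named in the text are the members, the 5 features most like them and textbook list members; UC1004819, named beside the bounds, was chosen after its values were seen. Members and lists were chosen with earlier results of these data known. Precision is limited by the number of arrays. The deposited value table was not used, since 0 of the 11 members were found in it by identifier (4 of 1874 probes were). Alternatives changed the scaling, background correction, filter, merging, blocks and arrays used.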

Additional observations from a re-analysis of the deposited data

How the results depend on the processing

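The 3 features of the cluster stayed called against naive cells in both hosts, and none was called between hosts, under 75th percentile scaling over all probes, median scaling, quantile normalization, normexp, no filter, detection on all spots, spot medians, slide row as a block, omission of both dim arrays together and omission of any single array (3 to 3 against naive cells, 0 to 0 between hosts). Without merging, 6 of 6 single probes were called in each host. With features restricted to those detected on all 7 arrays, 0 members were tested and 0 called in either host. Without scaling, an alternative added after seeing the data, 0 were called in sOVA hosts and miR-183-5p lost its call in WT hosts (3.13, limma's adjusted p 0.0893). Raising dim values, also added later, ended the miR-183-5p calls. With normexp the estimates in WT hosts were 3.89, 3.53 and 2.83 for miR-96-5p, miR-182-5p and miR-183-5p. The estimates of these 3 features kept their direction under every alternative that gave them one; the 5 members at the surrogate value were not followed.

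Counts over all features moved more: 64 (11 to 160) in WT hosts against naive, 72 (7 to 156) in sOVA hosts against naive and 0 (0 to 70) between hosts, where 70 were called without sOVA host replicate 3 and 49 without both dim arrays. With a replicate block, in which sOVA host replicate 3 stands alone and adds nothing to the differences, the estimates were 5.94, 5.65 and 4.37 in WT hosts and 4.94, 4.86 and 3.41 in sOVA hosts, the host difference of miR-96-5p had limma's adjusted p of 0.0609, and no call of a member changed, while 139, 104 and 27 features were called. Correlations of same-numbered arrays ran from -0.60 to 0.35. With 2 or 3 arrays a group, these values cannot decide whether the numbers pair the samples. The deposited value table was not run, as no member could be matched to its rows. Naive values are limits set by background, so no fold above the bounds is measured.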
